A study of Mus musculus with 12 samples.

Results

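The genes described here are the 6 that encode the late sterol steps to cholesterol, in pathway order *Msmo1*, *Nsdhl*, *Hsd17b7*, *Ebp*, *Sc5d* and *Dhcr7*. They were taken by symbol from the gene tables of liver RNA-seq, where all 6 were found among 24062 genes and all 6 passed the filter on low counts. The 12 libraries came from female C57BL/6J mice that arrived at 6 weeks of age, were acclimated for 2 weeks and took the control diet for 3 days. They then stayed for 10 days on that diet (6 mice here) or on a matched diet with BIBB-515, an inhibitor of lanosterol synthase, dosed at 55 mg/kg body weight (6 mice here). The study had 11 mice per diet, all of one inbred strain and one sex, and the mice not sequenced are not analysed here. The question that the comparison addresses is how the RNA of these late steps differed in liver when an enzyme earlier in the same pathway was inhibited.

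Cholesterol is made in the liver from acetyl-CoA through mevalonate and squalene. Lanosterol synthase closes squalene epoxide into lanosterol, the first sterol, and lanosterol is then stripped of its extra methyl groups and its double bonds are moved and reduced. Transcription of the pathway is driven by the sterol-sensing factor SREBP2, which is known to act together with NF-Y, a factor that binds CCAAT boxes, and with Sp1, a factor that binds GC-rich boxes. *Cyp51*, which removes the first methyl group of lanosterol, works before the 6 genes described here.

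In these livers, none of the 6 late genes passed the threshold of a false discovery rate (FDR) of 0.05 between the diets with edgeR's quasi-likelihood test. Of all genes tested, 13.7% passed. Of the 6, 3 passed with DESeq2, 3 with limma-voom, 3 with the edgeR likelihood ratio test and 4 with 1 surrogate variable in the fit. Without the filter on low counts 1 passed, and 0 with upper-quartile scaling, a stricter filter or counts of primary alignments. Over all genes, 1489 to 2436 passed in these other fits. The ratio of 2 of these genes in the same library differed between the diets for 4 of 15 pairs, 3 of which share *Sc5d*. How often the ratio of other gene pairs differs was not computed. *Msmo1*, *Nsdhl* and *Dhcr7* were 1.50 to 1.64 times the control level, *Ebp* 1.16 times, and *Hsd17b7* and *Sc5d* lay close to the control means. Relative to *Sc5d* in the same library, *Msmo1*, *Nsdhl* and *Dhcr7* were all higher with BIBB-515.

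The promoters of 4 of the genes are shown first, because 2 of them belong to genes with the larger fold changes (*Msmo1*, *Nsdhl*) and 2 to genes near the control level (*Hsd17b7*, *Sc5d*). Each is a RefSeq window on GRCm38.p6, 250 bases before to 50 after the annotated start, written 5′ to 3′ on the strand of the gene. Capitals mark CCAAT on either strand, so that a match on the opposite strand reads ATTGG.
Msmo1 promoter, chr8:64733529-64733828, minus strand: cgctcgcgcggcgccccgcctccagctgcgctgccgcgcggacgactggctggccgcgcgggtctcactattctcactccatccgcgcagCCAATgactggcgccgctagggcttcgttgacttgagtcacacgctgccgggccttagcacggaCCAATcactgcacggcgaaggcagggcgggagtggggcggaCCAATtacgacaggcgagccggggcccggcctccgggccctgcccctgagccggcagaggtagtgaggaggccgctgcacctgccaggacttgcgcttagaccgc
Nsdhl promoter, chrX:72918271-72918570, plus strand: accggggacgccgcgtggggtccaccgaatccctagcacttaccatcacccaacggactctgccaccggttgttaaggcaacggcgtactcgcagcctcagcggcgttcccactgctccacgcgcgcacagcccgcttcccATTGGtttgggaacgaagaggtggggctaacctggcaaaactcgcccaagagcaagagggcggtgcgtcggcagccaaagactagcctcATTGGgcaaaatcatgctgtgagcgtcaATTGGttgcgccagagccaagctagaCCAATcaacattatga
Hsd17b7 promoter, chr1:169969156-169969455, minus strand: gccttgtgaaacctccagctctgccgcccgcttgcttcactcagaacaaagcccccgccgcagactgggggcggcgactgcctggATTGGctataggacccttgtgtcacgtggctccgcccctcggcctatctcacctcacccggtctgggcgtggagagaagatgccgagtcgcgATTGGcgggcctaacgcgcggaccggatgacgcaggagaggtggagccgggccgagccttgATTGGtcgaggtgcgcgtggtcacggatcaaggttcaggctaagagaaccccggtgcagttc
Sc5d promoter, chr9:42264251-42264550, minus strand: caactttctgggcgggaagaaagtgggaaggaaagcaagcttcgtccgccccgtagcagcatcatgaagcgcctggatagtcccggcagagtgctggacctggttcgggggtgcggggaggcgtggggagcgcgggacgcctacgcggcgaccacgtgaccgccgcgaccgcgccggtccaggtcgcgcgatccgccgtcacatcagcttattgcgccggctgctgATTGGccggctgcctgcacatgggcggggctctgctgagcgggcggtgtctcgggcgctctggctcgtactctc

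The windows held 3 matches to CCAAT in *Msmo1*, 4 in *Nsdhl*, 3 in *Hsd17b7* and 1 in *Sc5d*, and the *Ebp* window, not printed, held 2. Over all 32851 promoter windows of the same length, 37.4% held at least 1 match, 11.7% at least 2 and 3.37% at least 3. *Hsd17b7*, near the control level, held as many matches as *Msmo1*, and whether the number of matches goes with the fold change was not tested. Of 2 spellings of the sterol regulatory element searched on both strands, TCACNCCAC was in none of the member windows (1.24% of all windows), and the looser TCANNCCA was in that of *Msmo1* at base 74 (15.7% of all windows). The Sp1 box GGGCGG (35.7% of all windows) was found 2 times in *Msmo1*, 1 time in *Nsdhl*, 3 times in *Hsd17b7*, 1 time in *Ebp* and 4 times in *Sc5d*. In these windows no match to one motif overlapped a match to another, and by its spelling every TCACNCCAC match is also a TCANNCCA match. *Dhcr7*, not printed, had 3 windows in the table, with 0, 0 and 2 matches to CCAAT. Its first 2 annotated exons each held below 1% of its exon reads in these livers. The same was true of exon 1 of *Msmo1* (0.689% in control mice) and of *Sc5d* (0.317%), whose windows are printed. A match describes letters in a window, and binding was not measured.

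Depth was alike in both diets, with 22764819 to 27914647 counted reads per control library and 24223939 to 31058370 per BIBB-515 library. Levels are given in CPM (reads of a gene relative to the TMM-scaled total of its library), and fold changes come from edgeR's quasi-likelihood test over 12481 genes, with Benjamini-Hochberg adjustment. In that fit 1705 genes passed FDR 0.05, 896 higher and 809 lower with BIBB-515. Hepatocyte markers were abundant in every library, and 3 of the 6 listed (*Alb*, *Ttr*, *Serpina1c*) fell, the summed level of the 6 ranging from 140850 to 156494 CPM in control mice and from 104717 to 120940 CPM with BIBB-515. Summed markers of bile duct (62.6 to 116 against 91.9 to 154 CPM), leukocytes (161 to 231 against 156 to 238), endothelium (161 to 217 against 147 to 199) and fat (6.77 to 102 against 9.10 to 42.9) overlapped between diets, with 1 fat marker at 0 in every library. Stellate markers overlapped too (260.2 to 355 against 247 to 305 CPM), with *Lrat* and *Dcn* of the 5 lower. The part of these shifts in the results below was not tested, and in whole liver a change in the number of cells of a type and in RNA per cell cannot be told apart.

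The first late enzyme, *Msmo1* (methylsterol monooxygenase), oxidizes the methyl groups on the fourth carbon of the sterol. The gene lies on the minus strand at chr8:64718145-64733578 (mm10, 6 exons). Its level in control mice was 83.0 CPM at the lowest, 159 at the median and 287 at the highest, and in BIBB-515 mice 239, 272 and 316. The BIBB-515 mice were all in the upper part of the range, and 1 control mouse, mouse 1, reached it. Mouse 1 stood above 4 of the 6 BIBB-515 mice, so the groups overlapped. The fitted fold was 1.64 (log2 fold change 0.71, SE 0.25), with an unadjusted p of 0.0113 and an FDR of 0.0671. Without control mouse 1 the log2 fold change was 0.93 with an FDR of 0.0167.

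*Nsdhl*, the dehydrogenase that removes the oxidized carbon as carbon dioxide, lies on the plus strand at chrX:72918521-72958528 (8 exons). Its control levels were 77.6 CPM at the lowest, 121 at the median and 204 at the highest, and its levels with BIBB-515 were 190 at the lowest, 204 at the median and 231 at the highest. Control mice 3 and 4 sat among the BIBB-515 mice, and the other 4 control mice were below all of them. The fold was 1.51 (log2 fold change 0.60, SE 0.21), with an FDR of 0.0658. It was 0.75 on the log2 scale without control mouse 3 (FDR 0.0207) and 0.76 without control mouse 4 (FDR 0.0212).

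*Hsd17b7*, the reductase that restores the hydroxyl group after each demethylation, lies on the minus strand at chr1:169949537-169969205 (9 exons). It ranged from 72.7 CPM through a median of 101 to 146 in control mice, and from 95.3 through a median of 101 to 134 with BIBB-515. The diets overlapped almost wholly, the highest and the lowest mouse both being control mice. The log2 fold change was 0.10 (SE 0.15, FDR 0.687), and leaving out control mouse 1, the highest, gave 0.23 with an FDR of 0.265.

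*Ebp*, the isomerase that shifts a ring double bond, lies on the minus strand at chrX:8185331-8193512 (5 exons). Control mice ranged from 231 to 286 CPM with a median of 246, and BIBB-515 mice from 270.0 to 327 with a median of 296. Of the BIBB-515 mice, 4 were above all control mice, and the 2 highest control mice, 3 and 4, overlapped the rest. The fold was 1.16 (log2 fold change 0.21, SE 0.07), with an unadjusted p of 0.0115 and an FDR of 0.0674. Without control mouse 3 the FDR was 0.0340 and without control mouse 4 it was 0.0387. No other omission of 1 mouse brought it under 0.05, and the highest FDR of these 12 fits was 0.142.

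*Sc5d*, the desaturase that adds a ring double bond to lathosterol, lies on the minus strand at chr9:42254177-42264300 (6 exons). It ranged from 404 to 675 CPM in control mice (median 517) and from 478 to 611 with BIBB-515 (median 516). The BIBB-515 mice lay inside the control range and the medians were nearly equal. The log2 fold change was -0.03 (SE 0.11, FDR 0.888), with 0.05 when control mouse 3 was left out and 0.01 when control mouse 4 was left out.

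*Dhcr7*, the reductase that turns 7-dehydrocholesterol into cholesterol, lies on the plus strand at chr7:143823167-143848410 (9 exons). Control levels were 103 CPM at the lowest, 155 at the median and 258 at the highest, and BIBB-515 levels were 215, 234 and 295. Control mouse 3 alone reached the BIBB-515 range, and 2 BIBB-515 mice were above it. The fold was 1.50 (log2 fold change 0.58, SE 0.19), with an unadjusted p of 0.00693 and an FDR of 0.0503. Without control mouse 3 it was 0.76 on the log2 scale with an FDR of 0.00549, and without control mouse 4 it was 0.66 with an FDR of 0.0419. These were the 2 of 12 single-mouse omissions that passed 0.05, and the FDR reached 0.0991 in another.

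**Figure D1:**
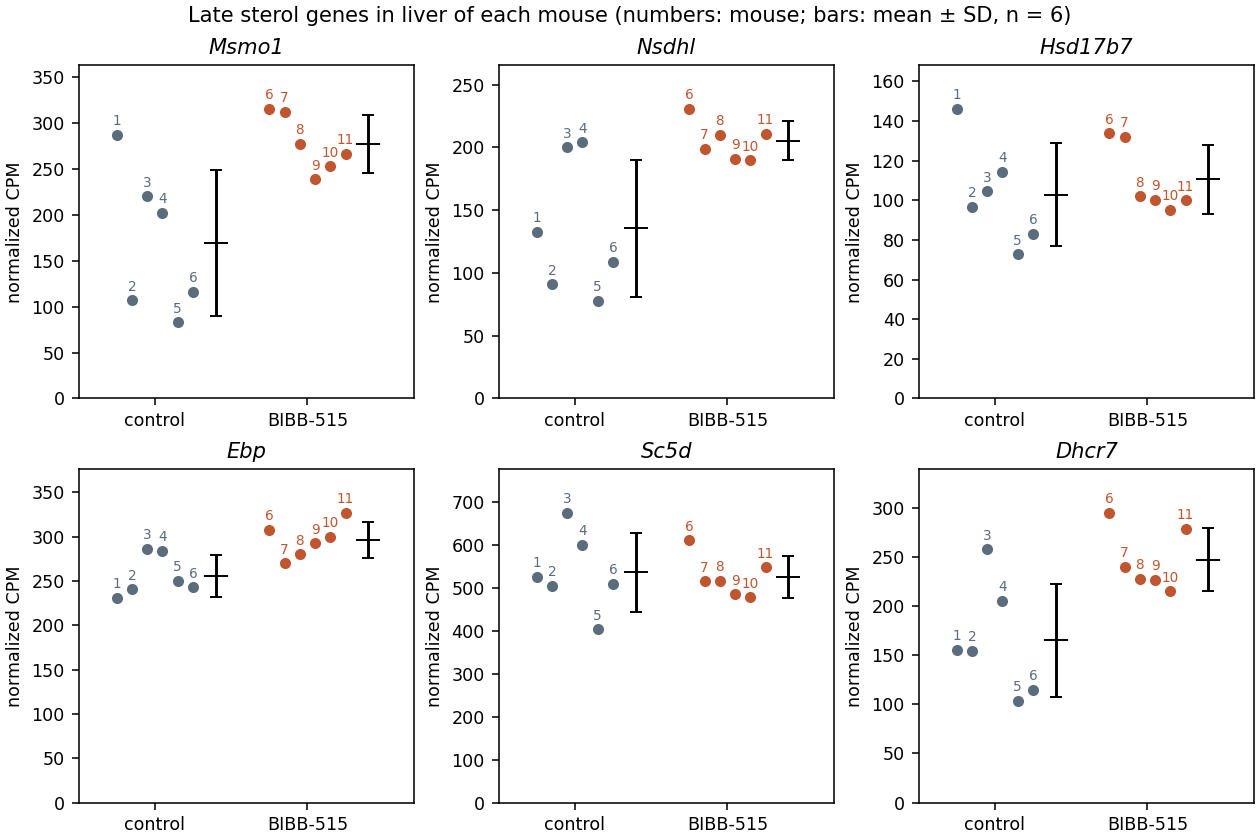
Normalized CPM of each late sterol gene in each mouse, in pathway order, with the mouse number above each point and the mean ± SD beside each diet (n = 6 per diet, linear axes from 0). Control mouse 5 is the lowest and control mice 3 and 4 the highest control mice for *Nsdhl* and *Dhcr7*, whereas the BIBB-515 mice lie close together.

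Counted over the 6 genes, 0 passed FDR 0.05 with edgeR's quasi-likelihood test, against 13.7% of all genes tested. At an unadjusted p under 0.05, 4 of 6 were higher with BIBB-515 (*Msmo1*, *Nsdhl*, *Ebp*, *Dhcr7*) and none was lower, against 14.3% of all genes higher at that level. In 0 of 6 were all BIBB-515 mice above all control mice, against 4.35% of all genes. The log2 fold change was above 0 for 5 of 6 genes with a median of 0.40, where 47.1% of all genes were above 0 with a median of -0.01. Past FDR 0.05, DESeq2 gave 3 of the 6 (2244 over all genes), limma-voom 3 (1668) and the edgeR likelihood ratio test 3 (1939). The fit with 1 surrogate variable gave 4 (2436) and the fit without the filter 1 (1489). Upper-quartile scaling, the filter of 1 CPM in 6 libraries and the primary tables each gave 0 (1711, 1713 and 1762). In the reported fit 1705 of all genes passed. The count among the 6 was 1 without control mouse 1, 4 without control mouse 3, 3 without control mouse 4, and 0 without any other single mouse.

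**Figure D2:**
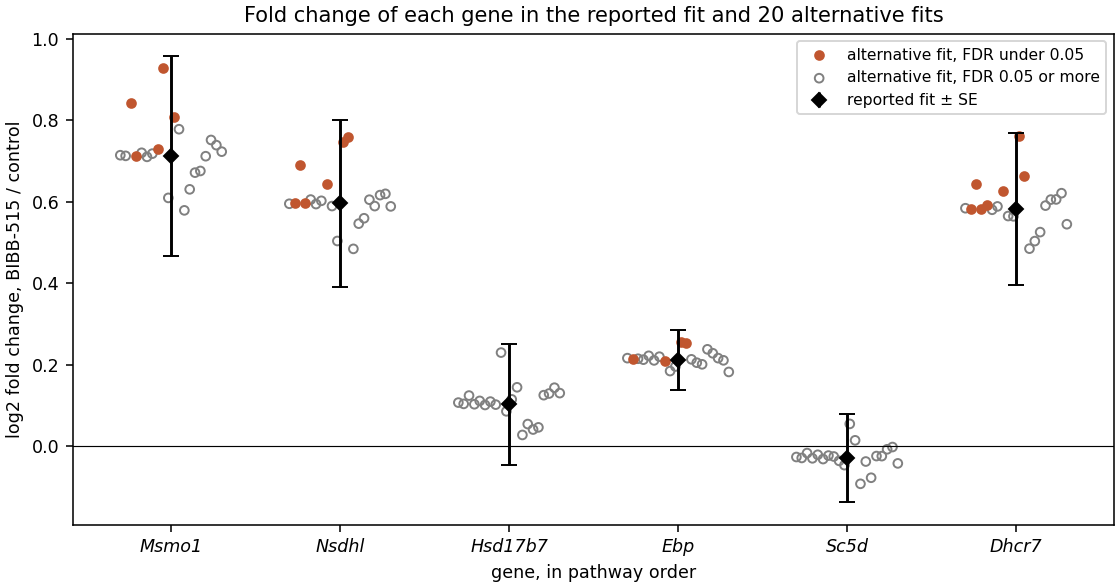
The log2 fold change (BIBB-515 over control) of each gene in the reported edgeR fit (diamond ± SE) and in 20 alternative fits (circles, filled where FDR was under 0.05). *Msmo1*, *Nsdhl* and *Dhcr7* stay between 0.48 and 0.93 in all of these fits, *Ebp* between 0.18 and 0.26, and *Sc5d* lies around 0.

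Ratios between the 6 genes within a library do not depend on the scaling of libraries, and all 15 pairs were compared by a two-sided exact permutation test, with Benjamini-Hochberg adjustment over the 15. The ratio differed between the diets for 4 pairs. Of these, 3 share *Sc5d*, so they are not separate results. How often the ratio of 2 other tested genes differs, or does not overlap, between the diets was not computed. The log2 ratio of *Msmo1* to *Hsd17b7* was 0.62 ± 0.40 in control and 1.33 ± 0.10 in BIBB-515 mice (SD, n = 6 and 6), a difference of 0.72 (SE 0.17, adjusted exact permutation p = 0.0108), with no overlap between diets. *Msmo1* opens each demethylation and *Hsd17b7* closes it, with *Nsdhl* between them. The ratio of *Nsdhl* to *Sc5d* rose by 0.71 (SE 0.15, adjusted p = 0.0108 in the exact permutation test), and the 6 mice of each diet did not overlap in it. The ratio of *Sc5d* to *Dhcr7*, the desaturase and the reductase of neighboring steps, fell by 0.66 on the log2 scale (SE 0.12, adjusted exact permutation p = 0.0108), also without overlap. The ratio of *Msmo1* to *Sc5d* rose by 0.86 (SE 0.23, adjusted exact permutation p = 0.0487) with some overlap. The unadjusted p of the 3 pairs without overlap, 0.00216, is the smallest that this exact test can give.

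Among *Msmo1*, *Nsdhl* and *Dhcr7* no ratio passed the test. The differences were 0.15 (SE 0.18) for *Msmo1* to *Nsdhl*, 0.20 (SE 0.21) for *Msmo1* to *Dhcr7* and 0.05 (SE 0.12) for *Nsdhl* to *Dhcr7*. For *Hsd17b7* to *Sc5d* the difference was 0.14 (SE 0.14). For *Ebp*, the difference was 0.23 (SE 0.09) in its ratio to *Sc5d* and -0.43 (SE 0.18) in its ratio to *Dhcr7*, each with an adjusted exact permutation p of 0.0649. Leaving out 1 mouse at a time gave from 3 to 8 pairs past the threshold, with 8 without control mouse 1 and 8 without control mouse 3.

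**Figure D3:**
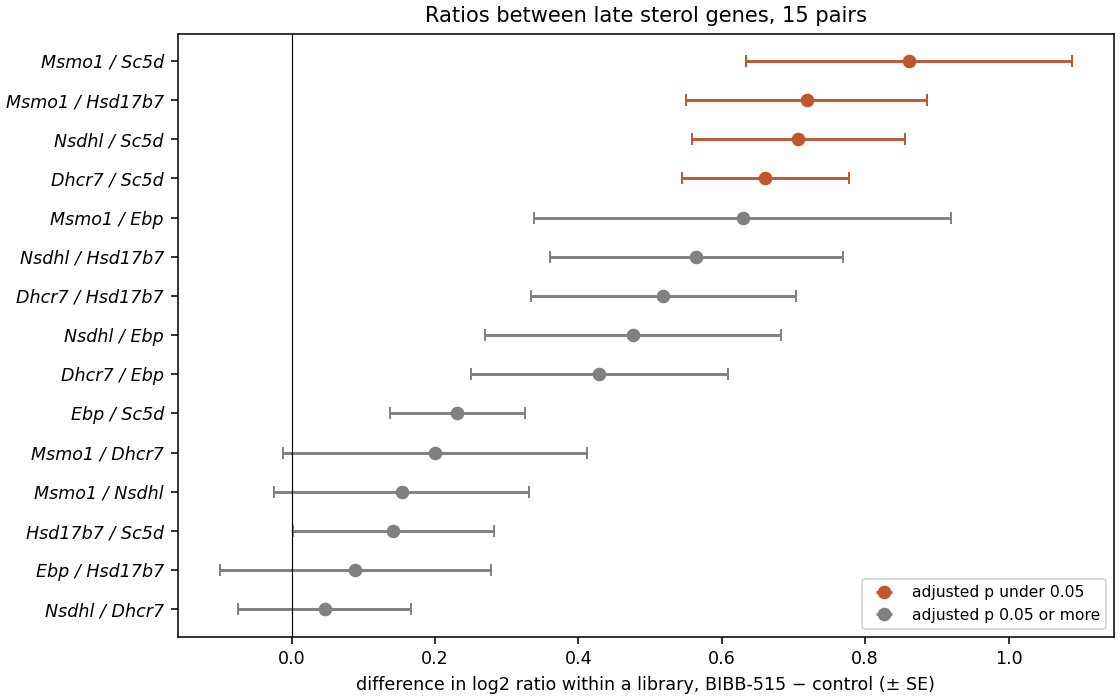
Difference between diets in the log2 ratio of 2 late sterol genes measured in the same library (points ± SE, n = 6 per diet, each ratio written so that the difference is above 0). Filled in orange are the 4 pairs with an adjusted exact permutation p under 0.05, 3 of which have *Sc5d* as the lower gene.

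*Cyp51*, which acts before *Msmo1* in the pathway, rose from 226 ± 87.2 to 508 ± 51.6 CPM (log2 fold change 1.17, SE 0.21, edgeR FDR 0.00223). The late genes are set against it here as a description with no test, because it was taken as the reference after the data were seen and had the highest log2 fold change of the 15 other pathway genes tested. The log2 ratio to *Cyp51* in the same library differed between diets by -0.41 for *Msmo1*, -0.57 for *Nsdhl*, -0.61 for *Dhcr7*, -1.04 for *Ebp*, -1.13 for *Hsd17b7* and -1.27 for *Sc5d*. The ratio to *Cyp51* thus fell least for *Msmo1* and most for *Sc5d*. Since the same reference is subtracted from every gene, this order only repeats that of the genes' own differences in mean log2 CPM.

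Levels between genes were compared per length, in TPM (reads per kilobase, scaled to a fixed total per library), computed from the counts. In control mice the order was *Sc5d* (454 ± 95.8 TPM, SD, n = 6), *Ebp* (279 ± 33.1), *Msmo1* (178 ± 87.4), *Nsdhl* (117 ± 50.1), *Dhcr7* (112 ± 43.7) and *Hsd17b7* (42.8 ± 11.8). With BIBB-515 it was *Sc5d* (452 ± 46.2), *Ebp* (329 ± 17.6), *Msmo1* (295 ± 39.0), *Nsdhl* (179 ± 15.1), *Dhcr7* (169.8 ± 22.3) and *Hsd17b7* (46.9 ± 8.47), the same order. In every library *Sc5d* was the highest of the 6 and *Hsd17b7* the lowest. TPM uses the whole annotated length, and exon 1 of *Ebp*, 712 of its 1741 exonic bases, held 3.28% of its exon reads in control mice. That exon stood at 15.6 CPM per kilobase in control mice, against 249 in exon 2. The TPM of *Ebp* therefore depends on counting that exon, and its order with *Sc5d* was not computed without it. *Nsdhl* was above *Dhcr7* in 3 of 6 control and 4 of 6 BIBB-515 mice, so their order was not fixed, whereas *Msmo1* was above *Nsdhl* in all 6 mice of each diet. *Msmo1* exceeded *Ebp* in control mouse 1 and BIBB-515 mouse 7. From 81.3% (*Hsd17b7*) to 97.6% (*Sc5d*) of tested genes had a lower control TPM.

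The control mice differed from each other more than the BIBB-515 mice did. The SD of log2 CPM was 0.70 in control and 0.16 in BIBB-515 mice for *Msmo1*, 0.58 and 0.11 for *Nsdhl*, and 0.50 and 0.18 for *Dhcr7*. For *Hsd17b7* it was 0.35 and 0.22, for *Sc5d* 0.25 and 0.13, and for *Ebp* 0.13 and 0.10. All 6 genes had the larger SD in control mice, as did 77.9% of all genes, so the direction alone was common in these libraries. The median over all genes was 0.20 in control and 0.13 in BIBB-515 mice, a median ratio of 1.48. The ratio was 5.41 for *Nsdhl*, a size reached by 0.873% of all genes, 4.33 for *Msmo1* (2.19%) and 2.72 for *Dhcr7* (11.9%). For *Ebp* it was 1.32 (58.5% of all genes). Among control mice the highest level of *Msmo1* was 3.46 times the lowest, and among BIBB-515 mice 1.32 times.

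**Figure D4:**
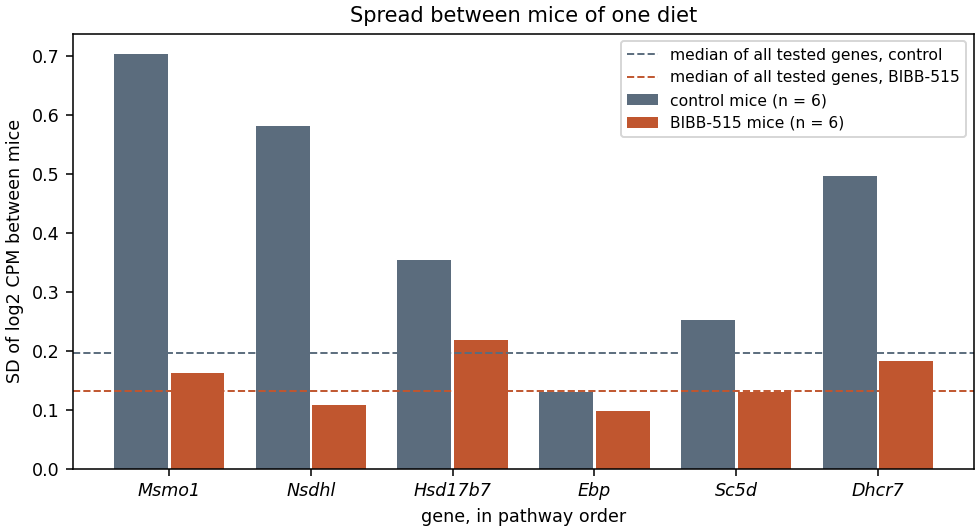
SD of log2 CPM between the 6 mice of each diet for each late sterol gene (bars from 0), with dashed lines at the median over all tested genes. *Msmo1*, *Nsdhl* and *Dhcr7* stand at 0.50 to 0.70 in control mice and at 0.11 to 0.18 with BIBB-515.

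The same mice tended to be high or low for several of the genes. Control mouse 5 had the lowest level of *Msmo1*, *Nsdhl*, *Hsd17b7*, *Sc5d* and *Dhcr7*, and mouse 1 the lowest of *Ebp*. BIBB-515 mouse 6 had the highest level of every gene but *Ebp*, for which it was mouse 11. Over the 15 pairs of genes, Pearson's r of log2 CPM within control mice had a median of 0.718 (-0.00814 to 0.935), with 14 above 0. Within BIBB-515 mice the median was 0.587 (-0.294 to 0.965), with 13 above 0. The pairs that passed in both diets were *Nsdhl* with *Sc5d* and *Sc5d* with *Dhcr7*. For *Sc5d* and *Dhcr7*, r was 0.935 in control mice (adjusted exact permutation p = 0.0486, Spearman's rho 0.943, adjusted exact p = 0.125, n = 6) and 0.943 in BIBB-515 mice (adjusted exact p = 0.0208, rho 0.943, adjusted exact p = 0.0833). Without the 2 mice farthest from the median of the first gene named in the pair, r was 0.823 and 0.865. For *Nsdhl* and *Sc5d*, r was 0.924 in control mice (adjusted exact permutation p = 0.0486, rho 0.943, adjusted exact p = 0.125) and 0.965 in BIBB-515 mice (adjusted exact p = 0.0208, rho 1.0, adjusted exact p = 0.0417), and 0.825 and 0.852 without the 2 farthest mice. *Msmo1* and *Hsd17b7* had r = 0.921 in control mice (adjusted exact permutation p = 0.0486, rho 0.886, adjusted exact p = 0.125) and 0.771 without the 2 farthest. In BIBB-515 mice their r was 0.907 (adjusted exact permutation p = 0.0885, rho 0.829, adjusted exact p = 0.219) and 0.384 without the 2 farthest. No other pair passed in either diet. The levels being correlated share a library and its scaling. *Sc5d* followed *Nsdhl* and *Dhcr7* from mouse to mouse within each diet, while its mean differed little between the diets.

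Taking the deviation of each mouse from the mean of its diet over all 12 mice, the tested genes whose levels were most like the 6 were named by mean r. They were *Sqle* (0.803), *0610007P14Rik* (0.794), *Lss* (0.790), *Dock6* (0.781) and *Fdft1* (0.780). *Sqle* encodes squalene epoxidase, *Lss* the lanosterol synthase that BIBB-515 inhibits and *Fdft1* squalene synthase, while *0610007P14Rik*, also called *Erg28*, encodes an anchor of the demethylation complex that holds *Nsdhl*. *Fdft1* rose with BIBB-515 (log2 fold change 0.71, SE 0.20, edgeR FDR 0.0290), and the other 4 did not pass (FDR 0.0644 to 0.621). These are descriptions, with no p, over libraries that share their scaling.

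Reads along the genes were read from the exon tables, in which a read that spans exons counts for each of them, so the values are described without a test. Taking exons with at least 50 reads in every library, all 5 of *Msmo1* were higher with BIBB-515 by 0.83 to 0.94 on the log2 scale, all 7 of *Nsdhl* by 0.65 to 0.90 and all 7 of *Dhcr7* by 0.62 to 0.82. The 5 of *Ebp* were higher by 0.20 to 0.25. These are differences of mean log2 values, not fitted fold changes. By mean log2 CPM the whole genes differed by 0.84 (*Msmo1*), 0.69 (*Nsdhl*), 0.64 (*Dhcr7*) and 0.21 (*Ebp*). For these genes every exon with at least 50 reads in each library gave a similar difference. Below that count, exon 1 of *Msmo1* differed by 1.00 (SE 0.27) and exon 1 of *Nsdhl* by 0.98 (SE 0.26). Exons 1 and 2 of *Dhcr7* differed by 0.47 (SE 0.40) and 0.44 (SE 0.46). In *Hsd17b7* the last exon, 3598 of the 4574 exonic bases, held 76.4% of the exon reads in control and 73.5% in BIBB-515 mice and differed by 0.09, where its other 4 such exons differed by 0.27 to 0.36. In *Sc5d* the 5 exons ranged from -0.03 to 0.20, with 3 above 0. Exons 1 and 2 of *Dhcr7* held 0.185% and 0.344% of its exon reads in control mice. Exon 1 stood at 0.972 CPM per kilobase and exon 4 at 71.6. The annotation used gave each gene 1 transcript, and no gene with overlapping exons.

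**Figure D5:**
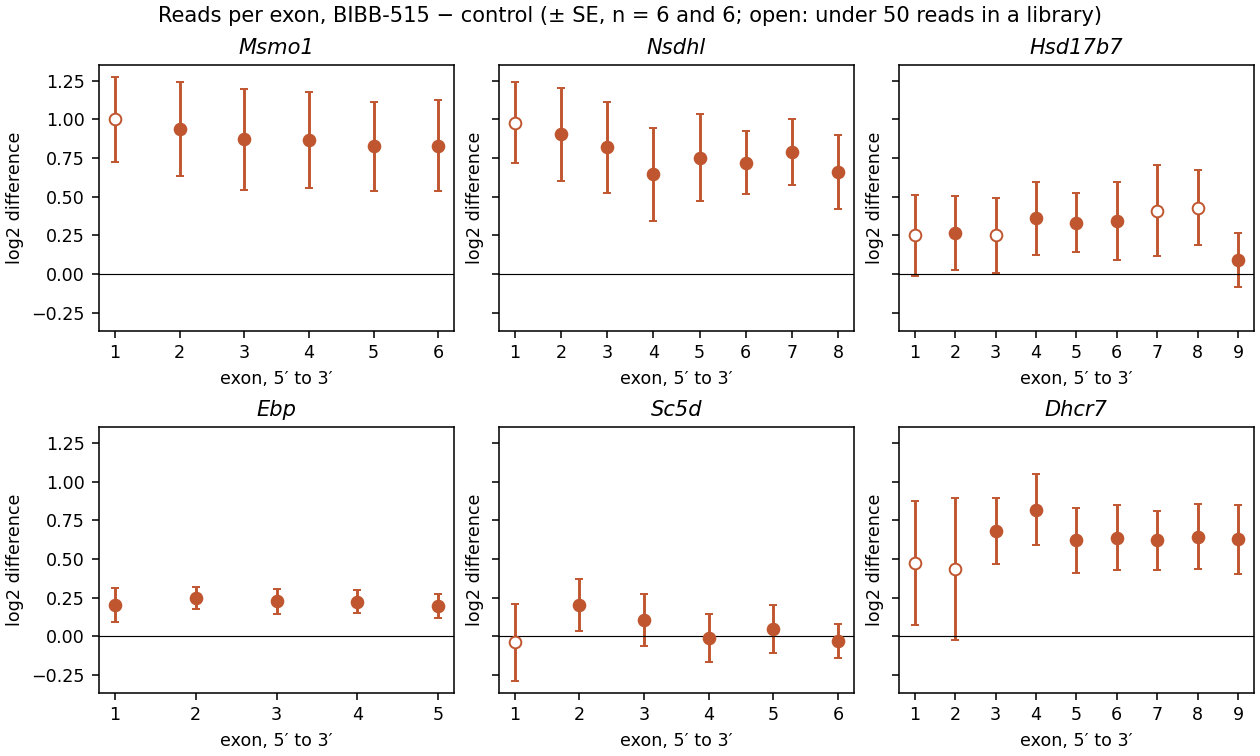
Difference in log2 CPM between diets for each exon, numbered 5′ to 3′ (points ± SE, n = 6 per diet, open points for exons under 50 reads in some library, shared vertical axis). All exons of *Msmo1*, *Nsdhl* and *Dhcr7* lie above 0, and those of *Sc5d* lie near 0.

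The rest of the pathway gives the background for the 6 genes. Of 15 other genes from acetyl-CoA to cholesterol, 7 rose, 0 fell and 8 did not pass, with a median log2 fold change of 0.62, where 13.7% of all genes passed in either direction. Before squalene epoxide, *Mvk* (mevalonate kinase) rose by 1.12, *Idi1* (isopentenyl diphosphate isomerase) by 1.16 and *Pmvk* (phosphomevalonate kinase) by 0.56, with edgeR FDR of 0.00233, 0.00547 and 0.0473. *Tm7sf2*, the sterol reductase that acts between *Cyp51* and *Msmo1*, rose by 0.79 (FDR 2.96e-05). *Lss* itself differed by 0.78 (SE 0.29, FDR 0.0854).

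A list of 6 partners of the sterol enzymes held electron carriers (*Cyb5a*, *Cyb5b*, *Cyb5r3*, *Por*), the anchor *Erg28* and the heme protein *Pgrmc1*. Of the 6, 3 rose and 0 fell (median log2 fold change 0.52), where 13.7% of all genes passed in either direction. *Cyb5a* (*Cyb5* in the tables), the cytochrome b5 that feeds both oxidases, rose from 661 ± 106 to 1209 ± 133 CPM (log2 fold change 0.87, edgeR FDR 0.000179). *Por*, the cytochrome P450 reductase that feeds *Cyp51*, rose from 546 ± 144 to 946 ± 72.1 CPM (0.79, FDR 0.00265). *Pgrmc1*, which binds P450 enzymes, rose from 709 ± 71.3 to 1178 ± 89.0 CPM (0.73, FDR 5.09e-05). Of 12 tested genes of SREBP control and cholesterol uptake, 2 rose and 0 fell, with a median of -0.03, a share near the 13.7% of all genes. They were *Insig2*, which holds the SREBP complex in the endoplasmic reticulum (0.91, FDR 0.00412), and *Tmem97*, a sterol-binding membrane protein (0.44, FDR 0.0109). Of 8 tested genes listed for sharing a family name with *Hsd17b7* or *Ebp*, 2 rose and 0 fell, with a median of 0.02. They were *Hsd17b6* (0.82, FDR 0.0220) and *Hsd17b13*, a lipid droplet protein (0.28, FDR 0.0413).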

How the data were processed

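RNA-seq of liver from 12 mice was analysed, 6 per diet, grouped by the sample titles, which name each mouse as its own sample. The labels give no sequencing batch. The authors deposited raw counts per gene, exon and transcript. The submitters' processing notes name STAR 2.5.3a, featureCounts (Subread 1.6.3) and mm10. Per the file headers, gene tables left out reads that mapped to several places or genes, no strand option was set, and a second set of tables counted primary alignments. Of the words of 50 bases in the exons of *Msmo1*, 1.54% occur in another gene, and of *Sc5d* 0.422%. No library repeated another (smallest chi-square per degree of freedom within a diet 12.1).

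Genes with at least 1 CPM in 2 libraries were tested in edgeR 4.0.16 (R 4.3.3) with TMM scaling, a quasi-likelihood fit and no covariate beside diet, with Benjamini-Hochberg adjustment over the 12481 genes tested. Log2 CPM used a prior count of 2, and exon differences a pseudocount of 0.05 CPM. The fit was tested on simulated data. Ratios and correlations were tested by two-sided exact permutation (scipy 1.17.1). Differences in ratios and exons are differences of mean log2 values, not fitted fold changes. Alternatives were upper-quartile scaling, DESeq2 1.42.0, limma-voom 3.58.1, the likelihood ratio test, no filter, at least 1 CPM in 6 libraries, primary tables, 1 surrogate variable (sva 3.50.0), a prior count of 0.5 for ratios, and each mouse left out. The ratios to *Cyp51* and the last-exon comparison were chosen after seeing the data, and the former are given without a test. The members, lists and tests were chosen with earlier results of these data known. Genes named are the members, up to 4 per list past FDR 0.05 with the lowest p, the genes a result turns on, and the 5 most like the members. Not every gene the rule allows is described. Protein sequences were not used here. Promoter sequences are from RefSeq (GRCm38.p6), in which all 6 members had a window.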

Additional observations from a re-analysis of the deposited data

How the results depend on the processing

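The number of late sterol genes past FDR 0.05, which was 0, stayed 0 with upper-quartile scaling, the filter of 1 CPM in 6 libraries and the primary tables. It was 3 with DESeq2, 3 with limma-voom, 3 with the likelihood ratio test, 1 without the filter and 4 with 1 surrogate variable, and 0 to 4 with 1 mouse left out. *Msmo1* passed in limma-voom (log2 fold change 0.84), the likelihood ratio test (0.71) and the surrogate variable fit (0.73), with 0.58 to 0.93 without 1 mouse. *Nsdhl* passed in DESeq2 (0.60), limma-voom (0.69), the likelihood ratio test (0.60) and the surrogate variable fit (0.64), with 0.48 to 0.76 without 1 mouse. *Ebp* passed in DESeq2 (0.21) and the surrogate variable fit (0.21), with 0.18 to 0.26 without 1 mouse. *Dhcr7* passed in DESeq2 (0.58), limma-voom (0.64), the likelihood ratio test (0.58), without the filter (0.59) and in the surrogate variable fit (0.63), with 0.49 to 0.76 without 1 mouse. *Hsd17b7* passed in none of them (0.03 to 0.23 without 1 mouse). *Sc5d* passed in none and changed sign without control mouse 3 (0.055) and control mouse 4 (0.014), with -0.092 to 0.055 without 1 mouse. The cause of these changes was not tested. The number of pairs with a different ratio was 4 in the primary tables and with a prior count of 0.5, and 3 to 8 without 1 mouse. Over all genes the number past FDR 0.05 ranged from 1199 without BIBB-515 mouse 10 to 2436 with 1 surrogate variable. No paired analysis was run, because the labels pair no mouse of one diet with a mouse of the other. With 6 mice per diet, p-values weigh the difference between the diets against the spread between these mice.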

Other observations

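Because the last exon of *Hsd17b7* differed less between the diets than its other exons, the log2 ratio of last-exon reads to reads on the other exons was compared for each of the 6 genes, a comparison chosen after seeing the data. The difference was -0.24 for *Hsd17b7* (from 1.72 ± 0.40 to 1.48 ± 0.14, SD, n = 6 and 6, exact permutation p = 0.158, adjusted p over 6 genes 0.649), with 3 of 6 BIBB-515 mice below all control mice. For the other 5 genes it lay between -0.12 and -0.04, and none passed the exact test (adjusted p 0.649 to 0.684). Over 6368 genes the median difference was -0.06 and 73.8% were below 0, and 5.03% of them had a difference at least as low as that of *Hsd17b7*. The median of this ratio per library ranged from -0.63 to -0.24 in control and from -0.67 to -0.34 in BIBB-515 mice.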
